A study of Homo sapiens with 9 samples.

Results

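Megakaryocyte and platelet genes were compared in HNT34 cells with and without knockdown of EVI1. The genes were a list of platelet surface receptors, granule proteins and a platelet-specific tubulin: ITGA2B, ITGB3, GP1BB, GP9, GP6, PF4, SELP, VWF and TUBB1. They were chosen with earlier results of these data known. Of these 9 genes, 4 were found by symbol among the 16612 genes of the count table: ITGA2B, ITGB3, GP6 and VWF. GP1BB, GP9, PF4, SELP and TUBB1 had no row under their symbols or RefSeq synonyms and were not analysed here. All 4 genes passed the filter on low counts, which kept 16312 genes.

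HNT34 is a human acute myeloid leukemia (AML) cell line with high EVI1 expression. All cells were transduced with a lentiviral shRNA vector and selected with puromycin, and RNA was collected 3 days after selection. The groups were a non-targeting shRNA (NT), EVI1 sh#16 and EVI1 sh#87, with 3 polyA libraries in each. The labels do not say whether the libraries of a group came from separate cultures, so the p-values measure only the spread between these libraries. In the comparison of both shRNAs with NT, the knockdown libraries formed 1 group, so that spread includes the difference between the shRNAs. The use of 1 cell line also limits what the groups can stand for. The libraries titled 87 carry the shRNA number 18 in another label, and their titles were followed.

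Megakaryocytes are the bone marrow cells that shed platelets into the blood. Platelets stick to a damaged vessel through receptors for von Willebrand factor and collagen, and bind to each other through fibrinogen held by the integrin αIIbβ3, while their alpha granules release clotting and growth factors. Megakaryocyte genes are switched on by factors of the GATA, ETS and RUNX families together with TAL1 and NFE2. EVI1, a zinc finger protein encoded by MECOM, is expressed in hematopoietic stem cells and is known for its link to disturbed megakaryocytes in 3q26 AML.

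The ITGA2B and GP6 promoters hold short motifs of these factor families, and they are shown because both genes fell with EVI1 knockdown. RefSeq promoters on GRCh38.p14, covering 250 bases before and 50 bases after the gene start, were given for 6 of the 9 genes and for ITGA2B and GP6 among the 4 with counts. Both strands were searched for GATA motifs (AGATAA or AGATAG or TGATAA or TGATAG), ETS motifs (AGGAAG or CGGAAG), RUNX motifs (TGTGGT or TGCGGT) and for the EVI1 motifs, ACAAGAT or GATGAG. The first of these can overlap AGATAA or AGATAG. Each sequence is 30 bases of the gene strand, with the motif in capitals, and CTTCCT is AGGAAG on the other strand, as CTCATC is GATGAG.
ITGA2B GATA motif: aagagacatcatTGATAGgcagaaccaata
ITGA2B ETS motif: tggcctcacccaCTTCCTggcaattctagc
GP6 GATA motif: gctggccagaggAGATAAgcgcggctcctt
GP6 ETS motif: cggggctggtggAGGAAGggaggagagcat
GP6 EVI1 motif: cggctacggctcGATGAGtctcaattagga
GP6 second EVI1 motif: gcattcttcatcCTCATCacatcctgagcc

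These stand, in the same order, at chr17:44389734-44389763, chr17:44389631-44389660, chr19:55038424-55038453, chr19:55038326-55038355, chr19:55038361-55038390 and chr19:55038300-55038329, all on the minus strand. The GATA motif of ITGA2B begins 102 bases before the gene start and that of GP6 begins 177 bases before it. A GATA motif was in 24.97% of all 35116 promoters, an ETS motif in 46.9% and GATGAG in 12.03%. A RUNX motif was in 19.6% of all promoters and ACAAGAT in 2.20%, and neither stood in these windows of ITGA2B and GP6. Matches this common describe the letters of the windows and do not show binding.

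The knockdown was read first from MECOM, the targeted gene, on chromosome 3 (bases 169083507 to 169663712). MECOM was at 505 ± 65.4 CPM (scaled to TMM library sizes, mean ± SD, n = 3) in NT, 144 ± 1.43 CPM in sh#16 and 107 ± 1.72 CPM in sh#87. Its log2 fold change against NT was -1.81 with sh#16 and -2.23 with sh#87 (edgeR quasi-likelihood test, adjusted p = 3.34e-07 and 6.91e-08). The 9 libraries held 17096170 to 43502389 counts each. The NT libraries varied more than the others, with a biological coefficient of variation of 25% against 3.77% in sh#16 and 6.96% in sh#87. The 15 mitochondrially encoded genes of the table took 4.69% to 15.9% of NT counts, 2.69% to 2.88% of sh#16 counts and 4.62% to 5.97% of sh#87 counts, and the part of this difference in the results was not tested.

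In the comparison of both shRNAs with NT, ITGA2B, GP6 and VWF fell and ITGB3 rose. A gene was said to rise or fall where its adjusted p was no more than 0.01, and was called a differentially expressed gene (DEG) where it also changed by 2 or more on the log2 scale. All 4 genes passed the test, against 59.8% of all genes tested, and none had overlapping groups. Among all genes 32.1% lay lower in every knockdown library than in every NT library, and 33.9% lay higher. As DEGs, 3 of the 4 were called (ITGB3 higher, GP6 and VWF lower), against 15.4% of all genes (9.74% higher and 5.66% lower). Since the genes were chosen with earlier results known, the shares of all genes give a scale and test no excess. The median log2 fold change of the 4 genes was -2.44, and that of all genes was 0.05. In bulk RNA, fewer cells of a type and less RNA per cell cannot be told apart.

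GP6 is the platelet receptor that binds collagen and starts activation. The gene lies on chromosome 19 (bases 55013705 to 55038264, GRCh38.p14). In NT the 3 libraries held 14.1, 15.9 and 16.3 CPM, from 329, 366 and 490 counts. With sh#16 the level was 0.0803, 0.173 and 0.110 CPM, from 2, 8 and 2 counts, and with sh#87 it was 0.208, 0.313 and 0.559 CPM, from 5, 7 and 11 counts. The groups were far apart, with the lowest NT library above 10 CPM and every knockdown library below 1 CPM. A limit of 3 counts corresponds to 0.0648 to 0.164 CPM among the 9 libraries, so the GP6 signal of 2 sh#16 libraries is below it.

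GP6 had the deepest fall of the 4 genes, with a log2 fold change of -6.04 (SE 0.35) for both shRNAs and an adjusted p of 2.83e-07 (edgeR). With sh#16 alone it was -6.82 (SE 0.29, adjusted p = 1.45e-07) and with sh#87 alone it was -5.44 (SE 0.26, adjusted p = 1.62e-07), which left 0.886% and 2.30% of the NT level. These folds rest on the few knockdown counts given above. GP6 overlaps the antisense gene GP6-AS1 on the annotation. The paper describes strand-specific libraries, but how strand was handled in counting is not given in the sources used here. GP6-AS1 was at 10.8 to 12.5 CPM in NT, 10.4 to 13.3 CPM in sh#16 and 18.3 to 23.8 CPM in sh#87, so the antisense counts did not fall beside those of GP6.

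The collagen response also needs FCER1G, the signalling chain that GP6 pairs with, and the integrin α2β1 encoded by ITGA2 and ITGB1. FCER1G was low in all libraries, between 0.208 and 0.883 CPM, and did not pass the test with both shRNAs (log2 fold change 0.36, adjusted p = 0.520, edgeR). ITGA2 fell with a log2 fold change of -0.88 (adjusted p = 1.22e-04) and ITGB1 also fell with -0.88 (adjusted p = 6.40e-04), so that 54.5% and 54.4% of the NT levels were left. Of the 3 other collagen receptor genes, 2 therefore fell, 0 rose and 0 reached the DEG threshold. Among all genes 29.7% fell, 30.1% rose and 15.4% were DEGs.

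VWF, the von Willebrand factor gene, encodes the large adhesive protein stored in alpha granules and in endothelial cells. It lies on chromosome 12 (bases 5948877 to 6124670). VWF was at 172, 223 and 315 CPM in the NT libraries. It was at 38.3, 36.9 and 38.2 CPM with sh#16, and at 21.3, 20.6 and 22.9 CPM with sh#87. All NT libraries were above all knockdown libraries, and the sh#87 libraries were all below those of sh#16.

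The fall of VWF was -2.99 on the log2 scale with both shRNAs (SE 0.25, adjusted p = 3.44e-06, edgeR), which left 12.6% of the NT level. VWF was a DEG with sh#16 (log2 fold change -2.65, SE 0.19, adjusted p = 2.79e-06) and with sh#87 (-3.45, SE 0.20, adjusted p = 4.46e-07). The partial copy VWFP1, a pseudogene that can share reads with VWF, held 20 to 59 counts in NT and 7 to 23 counts in the knockdown libraries. VWFP1 fell by 1.68 on the log2 scale (adjusted p = 7.16e-04), beside 4007 to 9447 VWF counts in the NT libraries and 450 to 1706 in the knockdown libraries.

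Since VWF is also an endothelial gene, the endothelial marker list is given beside it. Of 10 listed markers 7 were in the table, and KDR, TEK and CLDN5 had no row. The summed level of the 7 markers was 458 to 608 CPM in NT, 261 to 268 CPM in sh#16 and 185 to 201 CPM in sh#87. With both shRNAs 5 of the 7 fell and 0 rose, where 29.7% of all genes fell and 30.1% rose. Their part in the fall of VWF was not tested.

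ITGA2B encodes integrin αIIb, the platelet-specific subunit of the fibrinogen receptor, and is an early mark of the megakaryocyte lineage. It lies on chromosome 17 (bases 44372181 to 44389649). The NT libraries held 108, 170 and 267 CPM. The sh#16 libraries held 66.4, 66.1 and 62.2 CPM and the sh#87 libraries 31.0, 35.4 and 33.1 CPM. The NT libraries were wide apart, yet the lowest of them was above every knockdown library.

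The log2 fold change of ITGA2B was -1.89 with both shRNAs (SE 0.32, adjusted p = 3.84e-04, edgeR), so ITGA2B fell to 27.0% of NT without reaching the DEG threshold. Without NT replicate 1, the lowest NT library, it was -2.17 and would be called a DEG. ITGA2B fell by 1.49 with sh#16 (SE 0.26, adjusted p = 7.88e-04, not a DEG) and by 2.45 with sh#87 (SE 0.27, adjusted p = 3.16e-05, a DEG). NT replicate 3 had the highest ITGA2B and VWF and the lowest mitochondrial share of NT, 4.69%, whereas NT replicate 1 had the lowest ITGA2B and VWF and a share of 15.9%. The part of the mitochondrial share in these levels was not tested.

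ITGB3 encodes integrin β3, which joins αIIb in the fibrinogen receptor and also pairs with αV in many cell types. It lies on the same chromosome as ITGA2B (bases 47253827 to 47313743). ITGB3 was low in NT, at 0.430, 0.650 and 0.5003 CPM from 10, 15 and 15 counts. It was at 3.65, 3.44 and 2.74 CPM with sh#16, from 91, 159 and 50 counts, and at 1.29, 1.97 and 1.37 CPM with sh#87, from 31, 44 and 27 counts. ITGB3 was the sole gene of the 4 that stood higher in every knockdown library than in every NT library.

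The rise of ITGB3 was 2.20 on the log2 scale with both shRNAs (SE 0.42, adjusted p = 8.64e-04, edgeR), a 4.58-fold higher level. With sh#16 it was 2.64 (SE 0.24, adjusted p = 1.31e-05, a DEG) and with sh#87 it was 1.55 (SE 0.26, adjusted p = 4.27e-04, not a DEG). With limma-voom and a separate weight for each group, ITGB3 missed the threshold for both shRNAs (adjusted p = 0.0123) and for sh#87 (adjusted p = 0.0267), while its rise with sh#16 held (adjusted p = 0.00120).

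The subunits of the fibrinogen receptor thus moved in opposite directions, and their balance was compared per length. Transcripts of 3479 bases for ITGA2B and 5941 bases for ITGB3 were used, from an annotation on GRCh37 rather than the GRCh38 of the counts. In CPM per kilobase, ITGA2B exceeded ITGB3 by 429, 447 and 911 times in the NT libraries. The ratio was 31.1, 32.8 and 38.8 with sh#16 and 41.1, 30.8 and 41.2 with sh#87. The knockdown ratios were lower than all NT ratios, with a log2 difference of -3.97 between the geometric means of 6 and 3 libraries. Since ITGA2B lay lower and ITGB3 higher in every knockdown library, this separation follows from the levels above and no test of it is reported. Between the shRNAs the ratio differed by 0.13 on the log2 scale, within the spread of the libraries (exact 2-sided permutation test, p = 0.6, where 0.1 is the smallest possible). ITGA2B remained the more abundant subunit transcript in all 9 libraries.

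On the same scale, the order of levels in NT was ITGA2B (52.2 ± 23.0 CPM per kilobase, SD, n = 3), VWF (26.8 ± 8.20), GP6 (6.81 ± 0.509) and ITGB3 (0.0887 ± 0.0189). The ranges of ITGA2B and VWF overlap between NT libraries. With sh#16 the order was ITGA2B (18.6 ± 0.676), VWF (4.28 ± 0.0906), ITGB3 (0.551 ± 0.0803) and GP6 (0.0533 ± 0.0209). With sh#87 it was ITGA2B (9.54 ± 0.635), VWF (2.45 ± 0.129), ITGB3 (0.260 ± 0.0622) and GP6 (0.159 ± 0.0795), where the ranges of ITGB3 and GP6 overlap and GP6 was the higher of both in sh#87 replicate 3. At the low end, ITGB3 thus stood above GP6 in all 3 sh#16 libraries and below it in all 3 NT libraries, with no clear order in sh#87.

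Each shRNA was then compared with the same 3 NT libraries, so the results of sh#16 and sh#87 are not independent of each other. All 4 genes passed with each shRNA, where 60% of all genes passed with sh#16 and 67.9% with sh#87. With sh#16, 3 of the 4 genes were DEGs (ITGB3 higher, GP6 and VWF lower), against 12.8% of all genes (7.95% higher and 4.84% lower). With sh#87, 3 of the 4 were DEGs, all lower (ITGA2B, GP6 and VWF), against 18.9% of all genes (11.7% higher and 7.14% lower). The median log2 fold change of the 4 genes was -2.07 with sh#16 and -2.95 with sh#87, and that of all genes was 0.04 in both comparisons.

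The shRNAs were then compared with each other. ITGA2B, ITGB3 and VWF were lower with sh#87 than with sh#16 in every library, and GP6 was higher, where among all genes 34.3% were lower and 31.1% higher without overlap. The test was passed by 1 of the 4, ITGB3, against 17.7% of all genes. For ITGB3 the difference was -1.09 on the log2 scale (SE 0.22, adjusted p = 0.00562, edgeR). It missed the threshold without any 1 of sh#16 replicates 1, 2 and 3 or sh#87 replicates 1 and 3 (adjusted p between 0.0118 and 0.0281).

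For the others the difference was -0.97 for ITGA2B (SE 0.27, adjusted p = 0.0219), -0.81 for VWF (SE 0.19, adjusted p = 0.0109) and 1.37 for GP6 (SE 0.42, adjusted p = 0.0347), all above 0.01 in the edgeR fit of 3 groups. The spread in that fit is shared with the more variable NT libraries. In a fit of the sh#16 and sh#87 libraries alone, the adjusted p was 5.90e-07 for ITGA2B and 1.41e-06 for VWF. Without NT replicate 1 or NT replicate 3 the adjusted p was 9.87e-04 and 5.29e-04 for ITGA2B and 9.78e-04 and 1.56e-04 for VWF. DESeq2 gave 0.00126 for ITGA2B and 2.22e-04 for VWF. For the same genes, limma-voom with a weight per group gave 8.6e-05 and 7.6e-05. Most settings left the differences above the threshold, in 14 of 20 for ITGA2B (adjusted p up to 0.0736, without sh#87 replicate 1) and in 13 of 20 for VWF (up to 0.0444, without sh#87 replicate 2). These settings reuse the same libraries, so their number carries no weight of its own. None of the 4 was a DEG between the shRNAs, where 0.454% of all genes were.

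The neighbourhood of GP1BB gave counts under other names. GP1BB encodes a chain of the receptor complex for von Willebrand factor and had no row of its own, and the same holds for GP9, GP1BA and GP5 of that complex. Transcripts that read through from SEPTIN5 into GP1BB held 1, 0 and 5 counts in NT, 30, 28 and 12 counts in sh#16 and 10, 6 and 6 counts in sh#87. SEPTIN5 itself was at 0.903 to 1.03 CPM in NT, 1.04 to 1.28 CPM in sh#16 and 0.541 to 0.610 CPM in sh#87. The readthrough had a log2 fold change of 2.84 with both shRNAs (SE 0.75, adjusted p = 0.00613, edgeR). It missed the threshold with sh#87 alone (adjusted p = 0.0283), with group weights (0.0148), and without NT replicate 1 (0.0270), NT replicate 2 (0.0226) or sh#16 replicate 2 or 3 (0.0107 and 0.0105). Reads shared with its neighbours cannot be told apart here and do not give the level of GP1BB.

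The wider platelet and megakaryocyte pathway was covered by 62 other listed genes, of which 49 were in the table and tested. With both shRNAs 24 fell, 7 rose and 18 did not pass, and 11 were DEGs (10 lower, 1 higher), a share of 22.4% against 15.4% of all genes. Their median log2 fold change was -0.46, against 0.05 for all genes. Among the 49 genes, those that fell thus outnumbered those that rose, while all genes split almost evenly between 29.7% lower and 30.1% higher. The lists were also chosen with earlier results of these data known, so this split is a description and tests no excess.

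Of 19 genes for platelet receptors and signalling proteins, the longest list, 10 fell, 1 rose and 8 did not pass, where 29.7% of all genes fell. GUCY1A1, a subunit of the nitric oxide receptor that restrains platelets, fell from 471 to 25.8 CPM (log2 fold change -4.19, adjusted p = 1.07e-08, edgeR). CD36, a scavenger receptor that binds thrombospondin, fell from 8.48 to 0.499 CPM (-4.11, adjusted p = 3.53e-07). CD9, a tetraspanin of the platelet surface, rose from 15.5 to 24.7 CPM (0.68, adjusted p = 0.00603). CD9 did not pass with sh#87 alone (log2 fold change 0.56, adjusted p = 0.023, edgeR). With both shRNAs it missed the threshold without NT replicate 2 or 3 or any 1 sh#16 replicate (adjusted p from 0.0115 to 0.0282).

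Some genes outside the rule for naming genes are given because of their roles, and they were chosen after their values were seen. MPIG6B, an inhibitory receptor of megakaryocytes and platelets, fell from 3.80 to 0.272 CPM (log2 fold change -3.71, adjusted p = 5.90e-05, edgeR).

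Of 6 other alpha granule genes 2 rose, 2 fell and 2 did not pass, where 30.1% of all genes rose and 29.7% fell. PDGFA, a platelet-derived growth factor chain, fell from 29.7 to 4.27 CPM (log2 fold change -2.79, adjusted p = 1.25e-06, edgeR), and MMRN1, a granule protein that carries factor V, fell from 550 to 170 CPM (-1.69, adjusted p = 7.20e-05). SRGN, the proteoglycan core of secretory granules, rose from 40.0 to 61.2 CPM (0.61, adjusted p = 4.94e-04). CLU, which encodes clusterin and was also chosen after its values were seen, rose from 5, 1 and 5 counts in NT to between 55 and 130 counts in the knockdown libraries (4.26, SE 0.35, adjusted p = 2.82e-06).

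THBS1, the gene of the granule protein thrombospondin and likewise outside the rule, differed in direction between the shRNAs. It was at 189, 198 and 210 CPM in NT, at or below 165 CPM in the 3 sh#16 libraries and at 429, 458 and 437 CPM with sh#87. The sh#16 libraries were thus below NT (log2 fold change -0.29, adjusted p = 0.00227, edgeR) and the sh#87 libraries above it (1.15, adjusted p = 2.79e-07). The fall with sh#16 is small and missed the threshold without any 1 of the sh#16 replicates (adjusted p between 0.0108 and 0.0132). The difference between the shRNAs was 1.44 (adjusted p = 7.17e-06).

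Of 9 cytoskeletal genes 3 rose, 3 fell and 3 did not pass, near the shares of all genes that rose (30.1%) and fell (29.7%). MYLK, the kinase of myosin light chains, fell from 22.8 to 1.42 CPM (log2 fold change -3.99, adjusted p = 1.37e-07, edgeR), and FERMT3, which encodes kindlin-3 and switches on blood cell integrins, fell from 118 to 13.1 CPM (-3.17, adjusted p = 1.59e-06). FLNA, the actin cross-linker that anchors the von Willebrand factor receptor, rose from 244 to 853 CPM (1.81, adjusted p = 8.51e-05). VCL, which links integrins to actin, rose from 107 to 372 CPM (1.80, adjusted p = 1.89e-07).

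Of the 12 listed megakaryocyte transcription factors, 7 fell with both shRNAs, 1 rose and 4 did not pass. The share that passed was 66.7%, against 59.8% of all genes, and the DEGs were FLI1 and ETV6, a share of 16.7% against 15.4% of all genes. FLI1, an ETS factor needed for megakaryocyte maturation, was at 200, 196 and 159 CPM in NT, at 17.8, 17.6 and 16.3 CPM in sh#16 and at 7.90, 6.97 and 8.13 CPM in sh#87. FLI1 was lower in every knockdown library, with a log2 fold change of -3.89 (SE 0.31, adjusted p = 2.20e-06, edgeR), and the fall was deeper with sh#87 (difference -1.17, adjusted p = 1.82e-04). ETV6, another ETS factor, fell from 357 to 67.5 CPM (-2.40, adjusted p = 4.70e-08). ZFPM1, the cofactor of GATA1, rose from 11.7 to 23.6 CPM (1.02, adjusted p = 6.61e-04).

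Further factors, chosen after their values were seen, fell more with sh#87 than with sh#16. NFE2, which acts late in platelet formation, had a log2 fold change of -1.23 with sh#16 and -2.72 with sh#87 (difference -1.50, adjusted p = 4.46e-05, edgeR). GFI1B, a repressor that acts in the megakaryocyte and erythroid lines, had -0.91 and -2.07 (difference -1.16, adjusted p = 0.00288), and TAL1, a partner of GATA factors, had -1.03 and -1.56 (difference -0.53, adjusted p = 0.00504). The differences of GFI1B and TAL1 missed the threshold without any 1 of the 6 knockdown libraries, with adjusted p between 0.0113 and 0.0160 for GFI1B and between 0.0141 and 0.0262 for TAL1, and that of TAL1 also without NT replicate 2 (adjusted p = 0.0104). The fall of GFI1B against NT with both shRNAs missed it without NT replicate 2 or 3 (adjusted p = 0.0125 and 0.0201), and that with sh#16 without sh#16 replicate 1 or 3 (adjusted p = 0.0117 and 0.0105).

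RUNX1 did not pass with sh#16 (-0.07, adjusted p = 0.459) and fell with sh#87 (-0.74, adjusted p = 2.24e-05), with a difference of -0.67 (adjusted p = 4.71e-04, edgeR). GATA1, the master factor of the megakaryocyte and erythroid lines, was low throughout, with 7, 21 and 31 counts in NT, 22, 57 and 25 counts in sh#16 and 2, 4 and 2 counts in sh#87. It did not pass with both shRNAs together (-0.20, adjusted p = 0.829) or with sh#16 (0.61, adjusted p = 0.183). With sh#87 it was lower than in NT (-2.60, SE 0.56, adjusted p = 0.00210) and than with sh#16 (-3.21, SE 0.53, adjusted p = 0.00236). These rest on few counts: the first missed the threshold without sh#87 replicate 1 (adjusted p = 0.0122), and the second without sh#16 replicate 2 or 3 or any sh#87 replicate (adjusted p between 0.0101 and 0.0137).

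The 49 other pathway genes were also counted with each shRNA. With sh#16, 26 of 49 fell and 10 rose, and 10 were DEGs (9 lower), a share of 20.4%. Among all genes 30.2% fell and 29.8% rose with sh#16. With sh#87, 31 fell and 9 rose, and 17 were DEGs (15 lower), a share of 34.7%. Among all genes 33.6% fell and 34.3% rose with sh#87. In the direct comparison 18 were lower with sh#87, 3 were higher and 28 did not pass, against 9.42% lower and 8.29% higher among all genes.

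Markers of other lineages moved beside the platelet genes. Of 10 myeloid blast markers 8 were in the table, with MPO and CD38 without a row, and their summed level was 1889 to 1960 CPM in NT, 476 to 484 CPM in sh#16 and 297 to 312 CPM in sh#87. With both shRNAs 5 of these 8 fell and 0 rose, where 29.7% of all genes fell and 30.1% rose. The share of the 8 that passed was 62.5%, near the 59.8% of all genes. The 6 monocyte markers of 10 that were in the table summed to 63.0 to 69.1 CPM in NT, 106 to 111 CPM in sh#16 and 73.6 to 78.0 CPM in sh#87. ITGAM, the highest of the 6, rose from 34.5 to 69.8 CPM (log2 fold change 1.02, adjusted p = 1.59e-04, edgeR), while CSF1R fell from 10.1 to 2.38 CPM (-2.08, adjusted p = 1.34e-04). Of the 6 monocyte markers 2 rose, 1 fell and 3 did not pass, so that 50% passed, against 59.8% of all genes. Of 12 erythroid markers the table held EPOR alone, at 1.46 to 2.87 CPM in NT and 9.76 to 14.5 CPM in the knockdown libraries, with no row for the globin genes. The part of these shifts in the platelet gene results was not tested.

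Among the 4 genes themselves, Pearson's r of log2 CPM over the 9 libraries was 0.967 between ITGA2B and VWF, 0.913 between GP6 and VWF and -0.932 between GP6 and ITGB3. The 9 points share the knockdown groups, so the group differences enter these values, and they carry no test. The genes most like VWF among 16312 were VANGL1 (r = 0.9996), ADGRG5 (0.999) and EEF2K (0.998), those most like ITGA2B were HSH2D (0.997), PIK3CD (0.997) and ADGRG1 (0.997), and those most like GP6 were TSPOAP1-AS1 (0.997), MED12 (0.995) and LOXL3 (0.995).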

How the data were processed

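HNT34 RNA-seq was compared between NT, EVI1 sh#16 and EVI1 sh#87 (3 libraries each). Estimated counts, not normalized, were deposited by the authors for each gene symbol. The table's header names salmon output, whereas the methods and the submitters' processing notes name STAR and GRCh38, with FastQC 1.3. Header names are shifted 1 column leftward against the values. All values were whole, so none were rounded. Every gene in the table has at least 34 counts over the 9 libraries.

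Counts were tested in R 4.3.3 with edgeR 4.0.16 (TMM, filterByExpr, quasi-likelihood test, Benjamini-Hochberg over all 16312 genes). Both shRNAs against NT used a fit of 2 groups, and each shRNA and their difference used a fit of 3 groups. Genes passed where the adjusted p was no more than 0.01. They were DEGs where they also changed by 2 or more on the log2 scale. These are the thresholds in the text of the study, which used DESeq2, while one of its figure legends gives a looser adjusted p. CPM are scaled to TMM library sizes. Correlations used log2 CPM with a prior count of 2. The detection limit is 3 counts in a library and covers counting error alone. The platelet genes and all lists were chosen with earlier results of these data known. From each pathway list the text names up to 4 genes, those with the highest and lowest log2 fold change that passed with both shRNAs, with no overlap between knockdown and NT libraries and at least 5 CPM in the higher group. Same-numbered libraries did not deviate together (correlations from -0.137 to 0.0826 in 9 pairs), so the numbers were not treated as pairs.

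Alternatives were RLE and upper-quartile normalization, other filters and thresholds, DESeq2 1.42.0, limma-voom (limma 3.58.1) with and without a weight per group, a replicate block, other groups in the fit, removal of mitochondrially encoded genes, and each library left out in turn. In simulated counts with 200 genes changed by a log2 fold of 3, the model recovered 98.0% with both shRNAs, 97.5% with sh#16 and 96.5% with sh#87, with 0, 0 and 1 false calls among 15962 genes. The simulation gave each gene the same spread in all groups and the same change with both shRNAs, and far fewer genes changed than in the data. It checks that the model runs as intended and does not give error rates for the wider NT spread seen here. Promoters and positions are from RefSeq on GRCh38.p14, and transcript lengths from GENCODE on GRCh37. Permutation tests and figures used Python 3.11.15, scipy 1.17.1 and matplotlib 3.10.9. Antisense, overlapping or duplicated genes are named where they touch a result. One gene of the receptor list enters the counts and is not reported here by itself.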

Additional observations from a re-analysis of the deposited data

Results flagged for a closer look

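One library stood apart in depth: sh#16 replicate 2 reached 43502389 counts, and its gap among the 6 knockdown libraries to the next library was 0.773 of the whole range. It was the single one of 33 measures examined that passed Dixon's limit, which chance passes in about 1 of 20 groups. For genes that differ between the shRNAs, that difference widens the range, so this rate need not hold.

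The effects of the shRNAs differed by a direct test (edgeR, adjusted p at most 0.01) for several of the genes described, each given as the log2 level in sh#87 minus that in sh#16. Among the platelet genes it was ITGB3 (-1.09). Among receptor and granule genes these were FCER1G (-1.56), ITGA2 (0.38), MMRN1 (-0.80), PDGFA (-0.74) and THBS1 (1.44). Among transcription factors these were GATA1 (-3.21), NFE2 (-1.50), FLI1 (-1.17), GFI1B (-1.16), RUNX1 (-0.67) and TAL1 (-0.53). MECOM (-0.43) and the antisense gene GP6-AS1 (0.75) also differed. With 1 library left out, the differences of FCER1G (without any 1 of the 6 knockdown libraries, adjusted p between 0.0126 and 0.0229), ITGA2 (without NT replicate 2, any sh#16 replicate or sh#87 replicate 2 or 3, between 0.0118 and 0.0287), MECOM (without NT replicate 2 or any knockdown library, between 0.0134 and 0.0299) and GP6-AS1 (without any sh#16 replicate or sh#87 replicate 2 or 3, between 0.0105 and 0.0134) missed the threshold, as did those of ITGB3, GATA1, GFI1B and TAL1 given above.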

How the results depend on the processing

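For the 4 platelet genes, the direction against NT held under all alternatives run, and the tests of GP6, VWF and ITGA2B against NT passed under each of them. ITGB3 missed the threshold for both shRNAs and for sh#87 under group weights, as given above. The count of platelet DEGs was 3 to 4 with both shRNAs when 1 library was left out (4 without NT replicate 1), 3 to 3 with each shRNA and 0 to 0 between the shRNAs, where 1 was called at a log2 fold threshold of 1 and 1 with none. DEGs among the 49 other pathway genes, at a log2 fold threshold of 1 and with none, were 24 and 31 with both shRNAs, 18 and 36 with sh#16, 29 and 40 with sh#87, and 8 and 21 between the shRNAs. With 1 library left out, DEGs at the main thresholds were 10 to 12, 10 to 11, 16 to 17 and 0 to 1. The last lost its call, GATA1, without sh#16 replicate 2 or 3 or any sh#87 replicate.

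Signs turned for values near 0 that passed no test: GATA1 with both shRNAs (-0.58 without NT replicate 1 to 0.10 without NT replicate 3, and also above 0 without sh#87 replicate 1 or 3), RUNX1 with sh#16 (0.036 under upper-quartile normalization), and, between the shRNAs, VWFP1 (-0.32 without sh#16 replicate 1 to 0.077 without sh#87 replicate 1, and also above 0 without sh#16 replicate 2) and CLU (-0.18 without sh#87 replicate 3 to 0.066 without sh#87 replicate 2, and also above 0 without sh#16 replicate 3 or sh#87 replicate 1). The cause was not tested. Upper-quartile normalization moved the median over all genes by 0.11 on the log2 scale with both shRNAs. With the replicate block the counts of platelet DEGs were 3, 3, 3 and 0 and those of other pathway genes 11, 10, 17 and 1, as without it, but calls were lost against NT for GFI1B (adjusted p = 0.0108) and the readthrough into GP1BB (0.0120), and between the shRNAs for ITGB3 (0.0101), TAL1 (0.0116), GP6-AS1 (0.0119), MECOM (0.0140), ITGA2 (0.0146) and FCER1G (0.0171). Depth limits the knockdown levels of GP6 and GATA1 and the NT levels of ITGB3 and CLU.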
